A study of Mus musculus with 5 samples.

Results

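The cytosines described here lie in exons of the 19 mouse autosomes, away from promoters, CpG islands and the shores that flank islands. They were taken from both deposited tables of positions whose methylation differed between G5 and G0 common myeloid progenitors, by the authors' annotation flags alone. There were 318 such positions of 4688 in all and of 4227 on autosomes, 156 of them listed as higher and 162 as lower in G5. They stand for 313 CpGs in 245 genes. All 318 carry a percent in each of the 5 pools, so none of the listed ones was dropped here. What the authors' own thresholds left out is not known.

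Most CpGs of a mammalian genome outside islands are methylated in body cells. Exons inside transcribed genes are a part of that methylated background, where DNMT3B is guided in part by the H3K36me3 mark that transcription leaves. Methylation of a gene body does not silence it the way methylation of a promoter island can, and coding CpGs also sit in codons, where a methylated cytosine that deaminates turns into thymine.

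The progenitors, which give rise to granulocytes, monocytes, red cells and platelets, were sorted from bone marrow and read by reduced representation bisulfite sequencing. The G5 group was 2 pools of mice with the genotype G5 TERTER/ER, labelled as having short telomeres. The G0 group was 3 pools with the genotype G0 TERTER/+, labelled normal, so the controls carry 1 copy of the engineered telomerase allele too. All mice were of a mainly C576BL/6 background, each sample came from a pool, and the sources used here give neither the age nor the number of mice in a pool. Each pool held 14000 to 30000 cells, and sequencing gave 29 to 38 M reads per pool. How many reads stand behind a single percent is unknown, and intervals for counting error are therefore left out. The tables hold methylation only, so the sorted cells could not be checked against marker genes, and a change within cells cannot be told apart from a change in the mix of cells.

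Assigned by exon, the genes differ from those in the tables. The tables name the nearest start site, whereas here a CpG was placed on the RefSeq exon that holds it (GRCm38, the assembly of mm10). The gene differed at 148 of 318 positions (46.5%). The exonic positions listed under Arhgap9 lie in Gli1, those under Ercc2 in Ppp1r13l and those under 6430562O15Rik in Map1b. By this annotation 256 positions (80.5%) were coding, 51 were in 3' untranslated and 7 in 5' untranslated parts, and 3 were in noncoding transcripts. The remaining position, in D030018L15Rik, had no RefSeq exon in the annotation used. Last exons held 115 positions, and 1 of these was also a first exon.

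Coding stretches with several listed CpGs are shown so that the spacing of the changed CpGs, and those next to them that were not listed, can be seen. Each runs 5' to 3' on the coding strand (mm10), with every listed CpG in capitals.
Gli1, chr10:127332401-127332665, minus strand: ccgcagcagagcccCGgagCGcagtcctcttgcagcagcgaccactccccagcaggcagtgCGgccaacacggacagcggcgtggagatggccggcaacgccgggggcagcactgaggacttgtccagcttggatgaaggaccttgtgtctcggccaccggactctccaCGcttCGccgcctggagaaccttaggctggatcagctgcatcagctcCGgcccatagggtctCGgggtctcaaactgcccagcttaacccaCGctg
Tnfrsf11a, chr1:105844614-105844762, plus strand: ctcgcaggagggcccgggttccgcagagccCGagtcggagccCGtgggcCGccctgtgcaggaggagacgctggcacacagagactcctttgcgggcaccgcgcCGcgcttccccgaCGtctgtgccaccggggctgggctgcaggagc
Slit1, chr19:41600574-41600681, minus strand: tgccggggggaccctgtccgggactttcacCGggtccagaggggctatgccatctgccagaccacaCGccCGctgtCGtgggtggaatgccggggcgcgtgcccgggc
Napsa, chr7:44586734-44586798, plus strand: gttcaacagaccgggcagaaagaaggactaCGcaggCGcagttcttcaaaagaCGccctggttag
Umod, chr7:119476739-119476981, minus strand: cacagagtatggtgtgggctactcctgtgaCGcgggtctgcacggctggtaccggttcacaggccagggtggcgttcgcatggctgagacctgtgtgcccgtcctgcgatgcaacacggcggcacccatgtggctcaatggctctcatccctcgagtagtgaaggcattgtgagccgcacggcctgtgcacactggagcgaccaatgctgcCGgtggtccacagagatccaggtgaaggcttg
Lmntd1, chr6:145417400-145417467, minus strand: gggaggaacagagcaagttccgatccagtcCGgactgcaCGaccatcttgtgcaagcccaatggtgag
Tspan17, chr13:54792740-54792793, plus strand: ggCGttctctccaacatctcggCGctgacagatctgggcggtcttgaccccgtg
The Gli1 stretch is the coding part of exon 12 of 13 and holds 19 CpGs, of which 8 were listed. Tnfrsf11a had 5 of 16 CpGs listed in its last exon, Slit1 4 of 10 in exon 37 of 37, and Umod 2 of 15 in exon 3 of 11. Whether an unlisted CpG was read and did not pass, or was not read, is not known from the tables. Every member lay within 35 bp of a CCGG, the site at which the restriction enzyme MspI cuts in this method, and at 136 the CpG was the one inside that site.

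Exon methylation was high in G0 and moved in both directions in nearly equal numbers. At the 156 higher positions the median level was 85.6% and 89.8% in G5 pools 1 and 2, against 68.1%, 66.3% and 70.7% in the G0 pools. At the 162 lower positions it was 71.2% and 64.3% in the G5 pools, against 88.6%, 85.9% and 89.5% in the G0 pools. In both tables the medians of the groups did not overlap, in the direction by which each table was made. The mean difference was 18.1 points at higher positions, 76.9% ± 1.92 (SD, n = 2) in G5 and 58.7% ± 0.443 (SD, n = 3) in G0. At lower positions it was -17.2 points, 61.1% ± 1.39 (SD, n = 2) in G5 and 78.3% ± 0.827 (SD, n = 3) in G0. The authors chose these positions on the same samples, so these sizes describe the lists and are not tested.

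**Figure D1:**
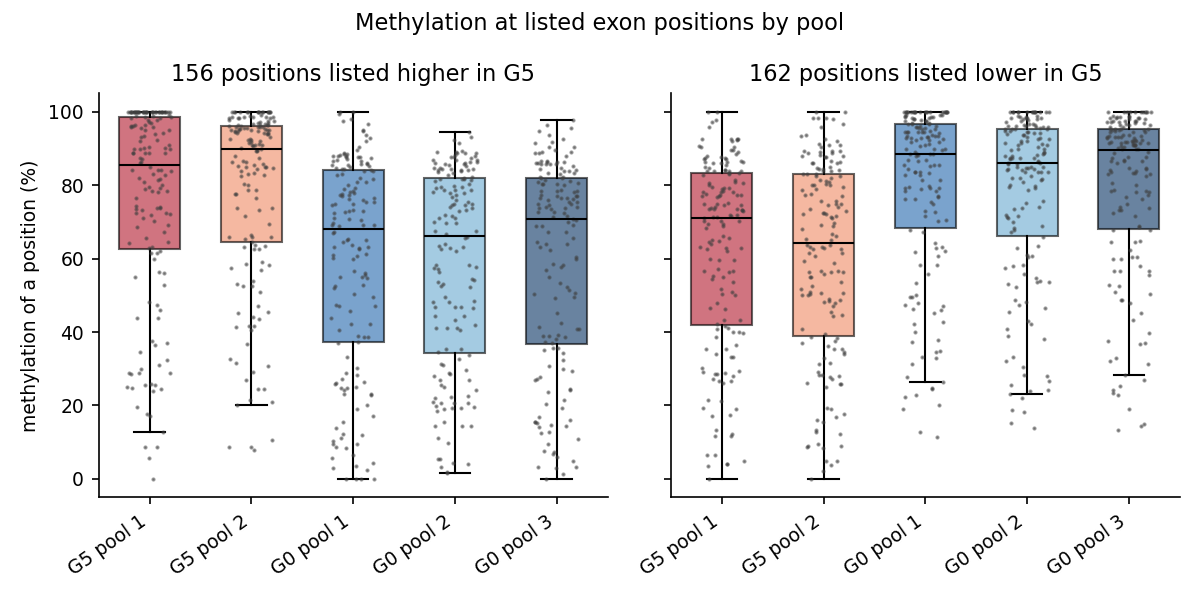
Percent methylation of each listed exon position (points) in the 2 G5 and 3 G0 pools, for positions listed higher (left) and lower (right) in G5. Boxes span the quartiles with the median as a line, and whiskers reach the farthest point within 1.5 box heights. In the left panel the G5 medians are 85.6% and 89.8%, above all G0 medians, and in the right panel they are 71.2% and 64.3%, below them.

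The direction went with the starting level. Of the 156 positions whose G0 mean was 80% or more, 106 were lower and 50 higher in G5. Of the 25 under 20% in G0, 22 were higher and 3 lower. A position less than 10 points from an end of the scale can pass a threshold of 10 points in 1 direction only, whereas one at 80% can pass in either. How much of this order comes from the threshold was not tested, so it is a description. Of the 156 higher positions, 95 (60.9%) stood above 80% in G5, against 50 (32.1%) in G0. Of the 162 lower positions, 45 (27.8%) stood above 80% in G5, against 106 (65.4%) in G0.

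**Figure D2:**
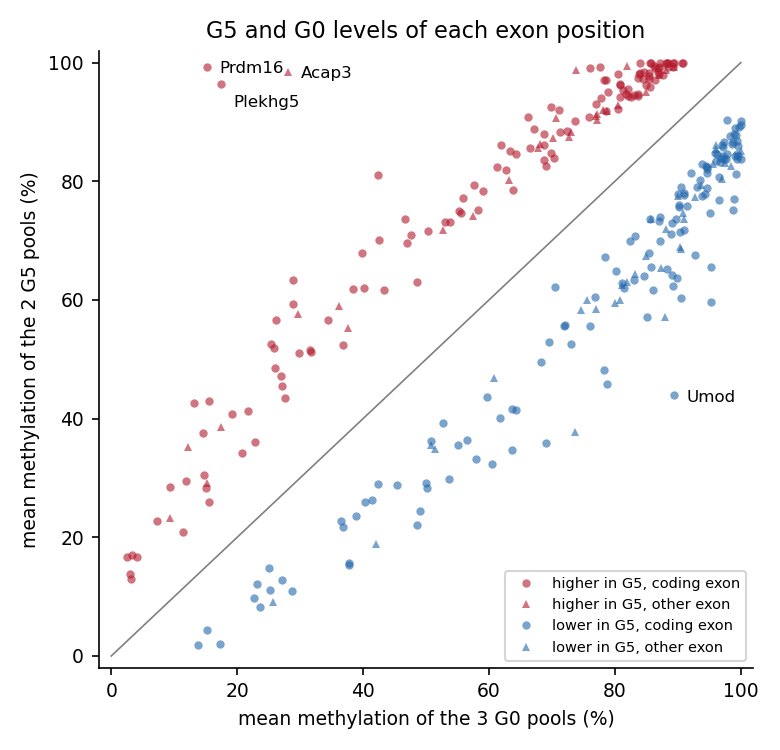
Mean level of the 2 G5 pools against the mean level of the 3 G0 pools for all 318 exon positions, in percent, with circles for coding and triangles for other exons and a line of equal levels. Points crowd toward high levels on both sides of the line, and Prdm16, Plekhg5 and Acap3 stand far above the rest.

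At most positions the pools separated by group, with more scatter in G5 at the lower ones. Both G5 pools lay beyond all G0 pools at 137 of 156 higher positions (87.8%) and at 126 of 162 lower positions (77.8%), where the same held for 86.9% of all listed higher and 83.9% of all listed lower positions. In limma's test over all 4688 listed positions, with Benjamini-Hochberg adjustment, an adjusted p under 0.05 was reached by 46 higher (29.5%) and 45 lower exon positions (27.8%), against 33.2% and 33% of all listed positions. The shares in exons are thus close to the background and are no result about exons. All positions in this fit had been selected by the authors on the same 5 pools, so here and below a position that passed limma is described by the spread of its pools, and its adjusted p is not independent evidence of a difference. The 2 G5 pools differed by a median of 11.7 points at lower positions, against 4.02 points between G0 pools, and by 6.30 against 6.63 points at higher positions. The scatter at lower positions was not particular to exons. Outside islands, shores and promoters it was 11.5 against 6.03 points in introns and 11.3 against 5.04 points between genes. In exons the G5 pools were over 20 points apart at 48 lower and 22 higher positions. Without G0 pool 1 or 3, 0 positions passed limma in either direction, with 58 to 66 at an unadjusted p under 0.05, and leaving out G0 pool 2 gave 2 higher calls and 0 lower calls, with 66 and 59 at an unadjusted p under 0.05. An exact permutation test of 1 position over 3 and 2 pools has 10 splits and cannot go below p = 0.1. Nothing in the labels says how the pools were made, so the spread may be in part technical.

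Among exons with the most higher positions, those of Map1b, Slit1, Dnm1, Tspan17 and Cdh22 had a higher mean level in both G5 pools than in any G0 pool. Map1b encodes a microtubule-associated protein of neurons, and its 10 positions on 8 CpGs lie in the 3' untranslated part of exon 7, within 54 bp at chromosome 13, 99421765 to 99421817. Their mean was 80.1% and 89.9% in the G5 pools, against 64.9%, 70.7% and 71.8% in the G0 pools. At 9 of the 10 the groups did not overlap, and limma passed 3 (smallest adjusted p = 0.0481). Slit1, a secreted guidance cue for growing axons, stood at 79.6% and 80.5% in the G5 pools, against 61.2%, 60.3% and 64.6% in the G0 pools, over 4 coding positions. All 4 kept the groups apart, with a difference of 18.04 points, and 2 passed limma (smallest adjusted p = 0.0444). In Dnm1, the dynamin that pinches off synaptic vesicles, 3 positions in exons 3 and 7 of 22 stood at 71.1% and 73.7% in G5, against 51.4%, 49.5% and 43.9% in G0. The CpG of Dnm1 exon 3, at chromosome 2, 32340473, was listed on both strands, with 72.4% and 89.7% against 47.1%, 44.4% and 35.7% on one and 68.6% and 77.6% against 56.8%, 46.8% and 57.8% on the other. The strands thus gave separate measurements of 1 CpG with the same direction, and both passed limma. The CpG of Dnm1 exon 7 stood at 72.3% and 53.8% in G5, against 50.4%, 57.4% and 38.2% in G0, so that the groups overlapped there and did not overlap at 2 of the 3 positions.

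Tspan17, a tetraspanin gene, had 2 CpGs 20 bp apart at the start of the coding stretch shown. They averaged 54.1% and 40.1% in the G5 pools, against 24.4%, 16.8% and 19.8% in the G0 pools, and both passed limma (smallest adjusted p = 0.0412). Cdh22, a cell adhesion cadherin, had 2 positions in the 5' untranslated part of exon 2 of 12. They stood at 42.5% and 50.4% in G5, against 24.5%, 17.5% and 20.9% in G0, and both passed limma (smallest adjusted p = 0.0426). In Cdh22 and Tspan17 the groups were apart at each listed CpG.

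In other dense exons the higher level came from G5 pool 2. Tnfrsf11a encodes RANK, the receptor through which RANKL drives myeloid precursors to become osteoclasts. Its 5 coding CpGs in exon 10 of 10 averaged 12.95% in G5 pool 1 and 52.8% in G5 pool 2, against 9.63%, 15.7% and 12.6% in the G0 pools. G5 pool 1 thus lay within the G0 range, and without G5 pool 2 the difference of 20.3 points was 0.314 points. Without G5 pool 1 it was 40.2 points. The groups did not overlap at 2 of the 5 CpGs, and limma passed 0 of 5 (smallest adjusted p = 0.0544). Napsa, an aspartic peptidase gene, stood at 28.7% and 62.6% in G5, against 24.2%, 25.6% and 21.4% in G0, over 4 positions that straddle its stop codon. The Napsa difference of 21.96 points was 5.01 points without G5 pool 2 and 38.9 points without G5 pool 1. Limma passed 0 of the 4 Napsa positions (smallest adjusted p = 0.0722).

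Among exons with the most lower positions, Gli1 led with 8. Gli1 is the transcription factor and readout of Hedgehog signalling, and its listed CpGs span 248 bp of coding exon 12, at chromosome 10, 127332404 to 127332650. Their mean was 54.9% and 26.7% in the G5 pools, against 61.7%, 55.1% and 58.2% in the G0 pools. At the CpG at 127332490 the levels were 97.2% and 50% in G5, against 88.4%, 86.0% and 82.4% in G0, so that G5 pool 1 lay above all G0 pools. The CpG at 127332448 stood at 26.7% and 32.9% in G5, against 53.5%, 54.8% and 52.5% in G0, and alone of the 8 passed limma (adjusted p = 0.0412). The groups did not overlap at 3 of 8. The difference of -17.6 points was -3.46 points without G5 pool 2 and -31.6 points without G5 pool 1.

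**Figure D3:**
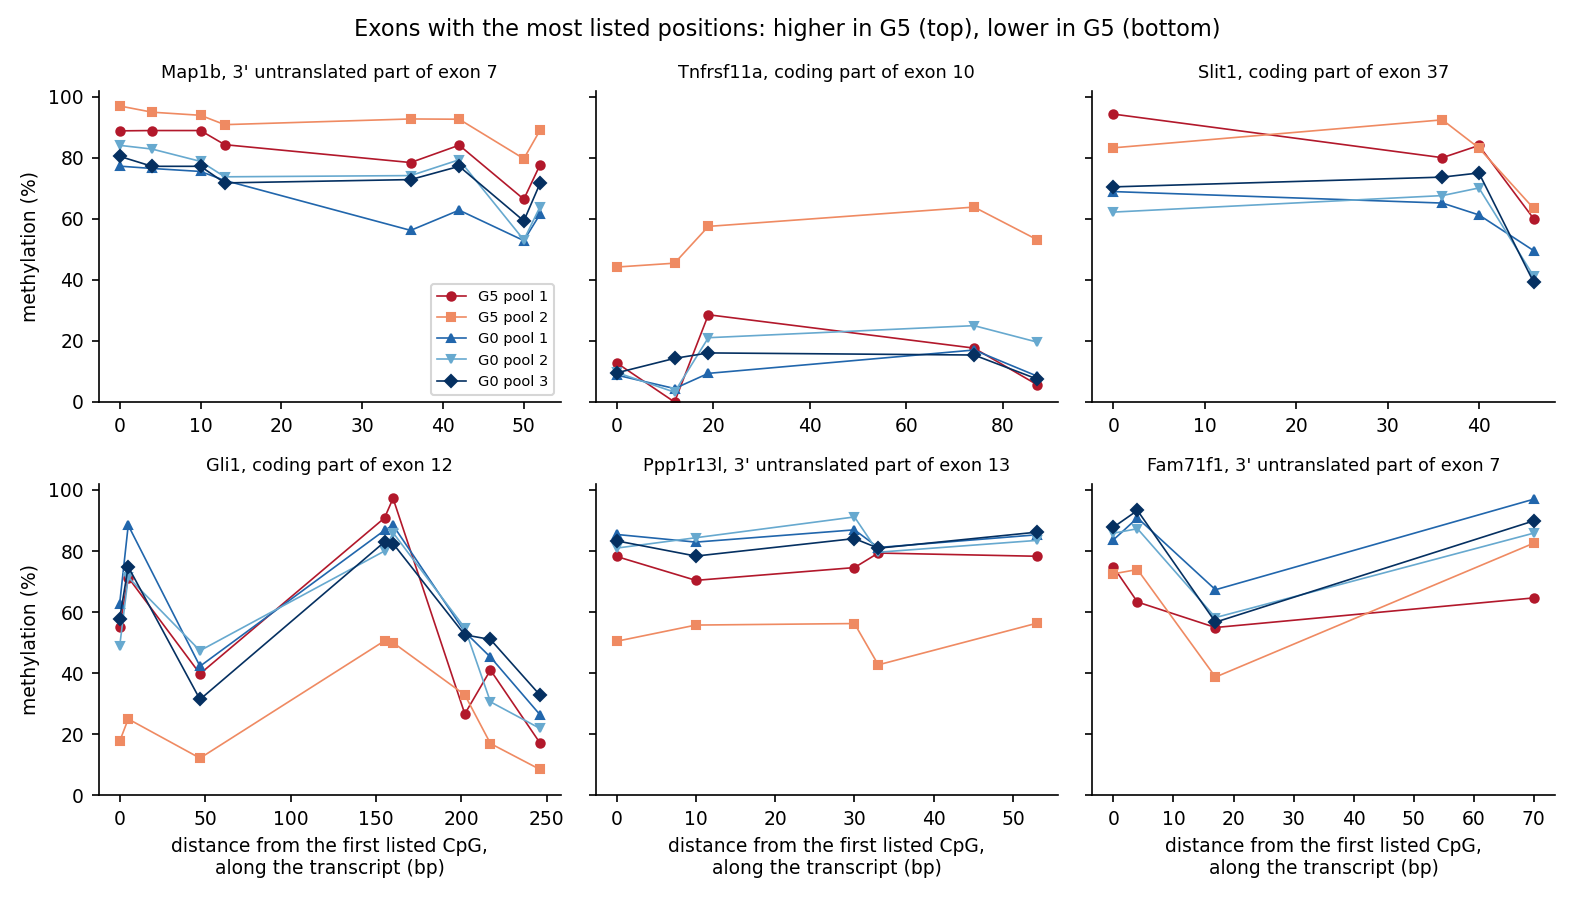
Methylation of each listed CpG in the 5 pools along 6 exons, in percent, against the distance in bp from the first listed CpG, both strands averaged where both were listed. G5 pool 2 (orange squares) stands apart from the other 4 pools in Tnfrsf11a and Ppp1r13l and at 7 of 8 CpGs of Gli1, while both G5 pools stand above the G0 pools in Slit1.

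Ppp1r13l encodes iASPP, an inhibitor of p53. Its 6 positions in the 3' untranslated part of the last exon stood at 76.7% and 50.7% in G5, against 83.8%, 83.2% and 82.3% in G0. The groups did not overlap at 5 of 6, and limma passed 2 (smallest adjusted p = 0.0486), with a difference of -19.4 points that was -6.41 without G5 pool 2 and -32.4 without G5 pool 1. Extl1, a glycosyltransferase gene of heparan sulphate synthesis, stood at 35.7% and 24.8% in G5, against 46.3%, 46.5% and 44.8% in G0, over 3 positions. Its difference of -15.6 points was -10.2 without G5 pool 2, and 0 of 3 positions passed limma (smallest adjusted p = 0.0514). Shank2, a scaffold of excitatory synapses, stood at 87.7% and 72.7% in G5, against 96.2%, 92.9% and 92.4% in G0, and 0 of its 3 coding positions passed limma (smallest adjusted p = 0.0513). The Shank2 difference of -13.6 points was -6.15 without G5 pool 2 and -21.1 without G5 pool 1.

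In Fam71f1, Umod and Lmntd1 both G5 pools lay below all G0 pools at every listed position. The 4 positions in the last exon of Fam71f1 stood at 64.4% and 66.9% in G5, against 84.7%, 79.3% and 81.9% in G0. All 4 kept the groups apart and 1 passed limma (adjusted p = 0.0444). Umod encodes uromodulin, the main protein of normal urine, and its 2 coding CpGs in exon 3 stood at 50.3% and 61.2% in G5, against 92.7%, 87.2% and 93.4% in G0. Both Umod positions passed limma (smallest adjusted p = 0.0412), with a difference of -35.3 points. The Umod CpG at chromosome 7, 119476950, had the largest lower difference among the 318, with 29.0% and 58.8% in G5, against 93.5%, 84.4% and 90.5% in G0. Lmntd1 stood at 28.6% and 25.9% in G5, against 36.7%, 62.0% and 64.9% in G0, over 2 coding CpGs, of which 0 passed limma (smallest adjusted p = 0.0536). Nacad stood at 37.6% and 65.2% in G5, against 87.3%, 77.2% and 81.4% in G0, with a difference of -30.5 points that was -16.7 without G5 pool 1. Of its 2 coding positions 1 passed limma (adjusted p = 0.0456).

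The 3 largest differences among exon positions all lay on distal chromosome 4 and were all higher in G5. Prdm16 encodes a transcription factor needed by blood stem cells and brown fat, and its CpG in coding exon 15 of 17, at 154323339, stood at 100% and 98.7% in G5, against 0%, 44.4% and 1.27% in G0. Plekhg5, which encodes a guanine nucleotide exchange factor, stood at 96.4% and 96.4% in G5, against 0%, 52.3% and 0% in G0, at 152112113 in coding exon 17 of 21. Acap3, a regulator of Arf GTPases, stood at 97.0% and 100% in G5, against 9.52%, 40.5% and 34.4% in G0, in its last exon at 155906186. In each of these the G5 pools were nearly fully methylated, and of the G0 pools it was pool 2 that stood highest. All 3 passed limma (adjusted p = 0.0412, 0.0426 and 0.0412). The other 3 members past 150 Mb of chromosome 4 were lower in G5. Of these the CpG of Prkcz, an atypical protein kinase C, passed limma (adjusted p = 0.0412), with 65.6% and 61.7% in G5, against 92.3%, 90.5% and 86.8% in G0. Without chromosome 4, a choice made after seeing the data, the mean difference was 17.0 points at higher and -17.3 points at lower positions.

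Outside chromosome 4 no higher position differed by more than 38.3 points, per the authors' deposited table. Cog1, a subunit of a Golgi tethering complex, stood at 64.3% and 62.5% in G5, against 23.1%, 32.6% and 30.8% in G0, and passed limma (adjusted p = 0.0412). The CpG of the muscle gene Cmya5 with the larger difference stood at 56.1% and 62.7% in G5, against 25.9%, 21.9% and 38.8% in G0, and passed (adjusted p = 0.0426). Iqsec3, an Arf activator of synapses, stood at 52.7% and 32.7% in G5, against 12.3%, 14.5% and 12.8% in G0, and passed (adjusted p = 0.0434). The Iqsec3 difference of 29.5 points was 19.5 without G5 pool 1. In each of the 3 genes the groups did not overlap.

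Large lower differences were of 2 kinds. In Rhoc, a small GTPase gene, in the Golgi adaptor gene Gga1 and in the noncoding gene 1700081H04Rik, both G5 pools lay below all G0 pools and limma passed the position. Rhoc stood at 27.3% and 44.4% in G5, against 67.7%, 67.9% and 71.7% in G0 (adjusted p = 0.0412). Gga1 stood at 35.4% and 34.0% in G5, against 64.3%, 54.0% and 72.5% in G0 (adjusted p = 0.0426). The noncoding 1700081H04Rik stood at 51.9% and 62.5% in G5, against 76.3%, 92.0% and 95.3% in G0 (adjusted p = 0.0444). In the other kind 1 G5 pool decided the value. Shc3, a neuronal adaptor of receptor kinases, stood at 89.6% and 31.2% in G5, against 97.5%, 86.1% and 87.7% in G0, so that the difference was -0.874 points without G5 pool 2 and -59.2 without G5 pool 1. Hdgfl3 stood at 41.7% and 89.3% in G5, against 94.7%, 93.6% and 97.5% in G0, with -6.00 points left without G5 pool 1 and -53.6 without G5 pool 2. Neither Shc3 nor Hdgfl3 passed limma (adjusted p = 0.123 and 0.0825).

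**Figure D4:**
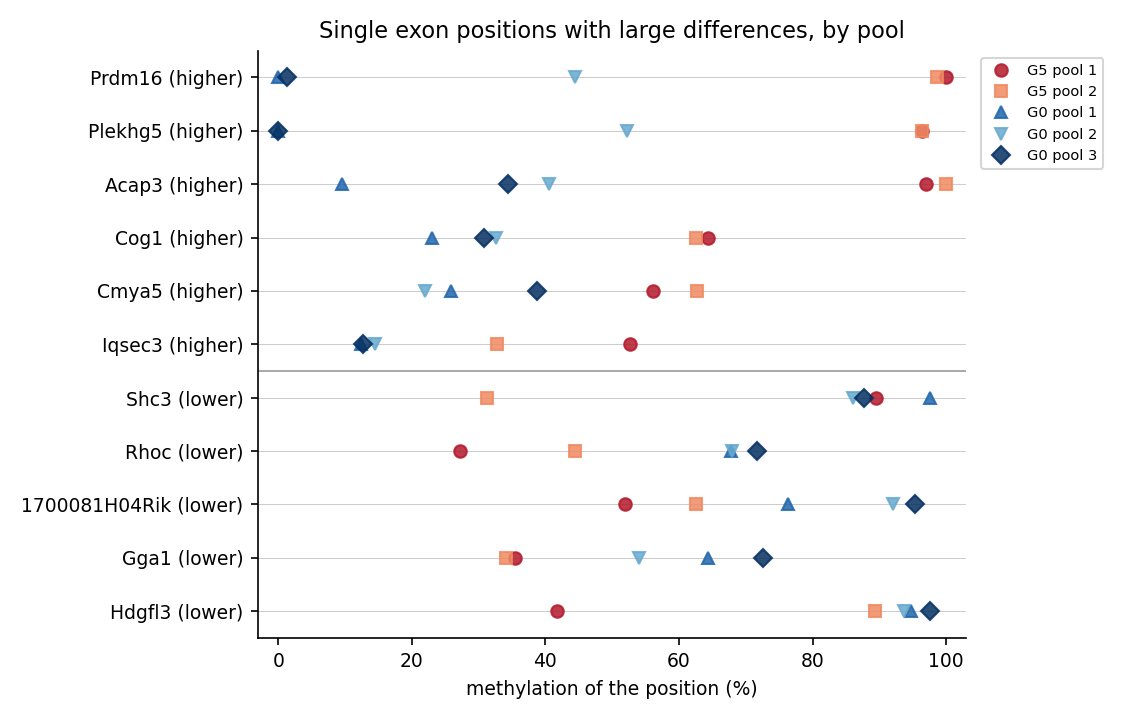
Methylation in each pool, in percent, at the exon positions with the largest differences in genes outside the most densely listed ones, 6 higher (above the line) and 5 lower in G5. G5 pools are circles and squares. Both lie right of all G0 pools in the 6 higher rows, while in Shc3 and Hdgfl3 the G5 pools are far apart.

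Neighbouring listed CpGs mostly had the same direction, with exceptions at short range. Of 59 pairs of neighbouring member CpGs within 1 kb, 54 were listed in the same direction, and of 53 pairs within 100 bp, 50 were. Only CpGs that the authors listed on these same pools enter the pairs, and unlisted neighbours do not. Several pairs can come from 1 exon, so these counts are a description. All 5 CpGs listed on both strands had 1 direction. In Dnali1, which encodes a light chain of ciliary dynein, CpGs 6 bp apart in coding exon 4 went opposite ways. The CpG at chromosome 4, 125059572 stood at 73.0% and 84.9% in G5, against 97.8%, 90.0% and 91.4% in G0, and that at 125059578 stood at 100% and 95.7% in G5, against 87.8%, 84.0% and 84.5% in G0. The groups were apart at both, and neither passed limma (adjusted p = 0.0677 and 0.0568). The lower Dnali1 difference of -14.1 points was -8.11 without G5 pool 1.

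Tpsg1, a mast cell tryptase gene, held opposite CpGs 58 bp apart in its last exon. The lower one stood at 21.6% and 9.02% in G5, against 37.9%, 32.2% and 43.3% in G0, and the higher one at 55.0% and 58.2% in G5, against 42.3%, 25.5% and 35.6% in G0. Both passed limma (adjusted p = 0.0456 and 0.0461). Galntl6, a gene of the GalNAc transferase family, held opposite CpGs 70 bp apart in exon 9 of 12, and both passed (adjusted p = 0.0456 and 0.0488). The lower one stood at 46.5% and 52.6% in G5, against 72.7%, 62.9% and 69.0% in G0, and the higher one at 87.5% and 84.8% in G5, against 74.7%, 52.6% and 58.5% in G0. Speg, a kinase gene of striated muscle, had a higher CpG in its last exon and a lower one in exon 27, more distant from each other. The higher one stood at 100% and 97.5% in G5, against 78.2%, 71.9% and 71.4% in G0 (adjusted p = 0.0412), and the lower one, which did not pass (adjusted p = 0.0554), at 60% and 75.8% in G5, against 88.6%, 84.2% and 83.4% in G0. Its lower difference of -17.6 points was -9.68 without G5 pool 1.

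Levels are given by kind of exon. At coding positions the mean was 76.4% ± 1.78 (SD, n = 2) in G5 and 58.3% ± 0.523 (SD, n = 3) in G0 for the 127 higher ones. It was 60.4% ± 0.621 (SD, n = 2) in G5 and 77.5% ± 0.819 (SD, n = 3) in G0 for the 129 lower ones. In 3' untranslated parts the 24 higher positions stood at 79.9% ± 2.57 (SD, n = 2) in G5 and 61.6% ± 2.70 (SD, n = 3) in G0, and the 27 lower ones at 64.7% ± 4.87 (SD, n = 2) in G5 and 81.5% ± 1.07 (SD, n = 3) in G0. In 5' untranslated parts the 5 higher positions stood at 73.9% ± 2.34 (SD, n = 2) in G5 and 55.7% ± 1.78 (SD, n = 3) in G0, and the 2 lower ones at 74.2% ± 13.5 (SD, n = 2) in G5 and 92.0% ± 3.58 (SD, n = 3) in G0. Map1b and Ppp1r13l supply 16 of the 51 positions in 3' untranslated parts. Limma passed 37 of 127 higher and 32 of 129 lower coding positions, and 7 of 24 higher and 11 of 27 lower positions in 3' untranslated parts. These are shares of 29.1%, 24.8%, 29.2% and 40.7%, against 33.2% of all listed higher and 33% of all listed lower positions, and the differences between kinds of exon were not tested.

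The place of the CpG in the codon was read from the coding frame. A CpG whose C is the first base of a codon belongs to an arginine codon. This was so for 45 of 127 higher coding positions (35.4%) and for 57 of 129 lower ones (44.2%), against 37.1% of the 3702 CpGs in the same 213 coding exons. The C was the last base of a codon at 51 higher (40.2%) and 39 lower positions (30.2%), against 37.4% of those CpGs. Positions within an exon share their sequence, so these shares are a description.

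The gene lists relevant to blood and to telomeres held few exon positions. None of the 34 myeloid markers, the 27 erythroid and megakaryocytic markers, the 57 myelodysplasia genes and chromatin regulators, the 57 p53 and DNA damage genes or the 31 telomere maintenance genes had a member, and no Hox gene had. Of 35 stem cell genes the member was in Prdm16. How many exon CpGs of these genes were measured is not known, so a list without a member is not a list without a difference. The lists are also selections of genes, and members with related functions can lie outside them. Ppp1r13l, the gene of the p53 inhibitor described above, had 6 lower positions and is not on the p53 list. Zbtb48, Poll, Alkbh2, Arid2 and Chd9, on none of these lists, had 1 position each.

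Lists of structural genes held more. The calls of every list here and below stand beside 33.2% of all listed higher and 33% of all listed lower positions that passed limma. The lists hold few positions, so their calls are no result about a list. Of 83 cytoskeletal genes 9 had members, with 20 higher and 2 lower positions, of which 3 and 1 passed limma, against 46 of 156 higher and 45 of 162 lower positions of all exons. Of these, 10 lie in 1 exon of Map1b. The median difference of the 22 was 15.6 points. That over all 318 was -9.96 points, which lies at the edge of the gap between the lists of higher and lower positions and is no baseline for a list. Both lower positions were in Myo18a, an unconventional myosin, whose CpG in exon 19 of 41 stood at 38.7% and 48.7% in G5, against 58.3%, 61.1% and 59.8% in G0 (adjusted p = 0.0489). Of 81 extracellular matrix genes 7 had 1 position each, 5 higher and 2 lower, of which 3 and 0 passed, with a median difference of 13.3 points. The higher ones included Col4a1, the type IV collagen chain of basement membranes, with 100% and 100% in G5, against 85.7%, 84.6% and 81.5% in G0 (adjusted p = 0.0454). Nid2, a basement membrane linker, stood at 89.8% and 86.2% in G5, against 63.6%, 78.7% and 64.1% in G0, and did not pass (adjusted p = 0.0509). The cadherin and junction list had 4 positions in Cdh22 and Pkp3, all higher, of which both in Cdh22 passed, and the median was 18.5 points.

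The signalling list of 93 genes had 10 positions, all lower, 8 in Gli1 and 2 in Ltbp2, with a median of -14.3 points and 1 passing limma, where 33% of all listed lower positions passed. Of 59 splicing genes 3 had members, 3 lower positions in Elavl3 and Celf5 and 1 higher in Rbfox1, with a median of -16.1 points. Elavl3, a neuronal RNA-binding protein, stood at 41.2% and 41.5% in G5, against 59.5%, 56.7% and 56.7% in G0, over 2 positions, and 1 of them was the only call of that list (adjusted p = 0.0464). Of 107 ion channel genes 5 had 1 position each, 3 higher and 2 lower, with 1 higher call, in the cation channel gene Trpv4, where 33.2% of all listed higher positions passed, and a median of 12.7 points. The calcium channel gene Cacna1a was listed as lower, yet stood at 96.0% in G5 pool 1 and 28.4% in G5 pool 2, against 61.8%, 71.1% and 78.7% in the G0 pools. The authors' deposited difference for Cacna1a was -25.7 points, whereas the plain difference between the means of the pools was -8.32 points. The plain difference was 25.5 points without G5 pool 2, -42.1 points without G5 pool 1, -12.7 points without G0 pool 1 and -4.23 points without G0 pool 3.

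Solute carriers had 3 higher and 3 lower positions in 6 genes, with 1 higher call, where 33.2% of all listed higher and 33% of all listed lower positions passed. Slc13a5, a citrate transporter gene, stood at 89.7% and 65.0% in G5, against 92.9%, 89.1% and 96.4% in G0, and did not pass (adjusted p = 0.107). Its difference of -15.5 points was -3.13 without G5 pool 2 and -27.8 without G5 pool 1. Zinc finger genes had 3 higher and 1 lower positions in 3 genes, with a median of 12.2 points and 0 calls. Zfp239 stood at 99.2% and 99.1% in G5, against 86.5%, 83.2% and 90.7% in G0, over 2 coding CpGs (smallest adjusted p = 0.0545). The symbols Adgr and Gpr gave 3 higher and 1 lower positions, with a median of 10.4 points and 0 calls, the lower one in Gprin2, which is not a receptor. Adgrb1, an adhesion receptor for dying cells, stood at 92.0% and 89.9% in G5, against 81.0%, 69.7% and 80.4% in G0 (adjusted p = 0.0640).

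Set beside other listed positions, exons outside islands were nearest to introns and intergenic sequence in direction, level and CpG density. They were nearest to exonic islands in the share of repeats. In the size of the difference the nearest class depended on the direction. Of the 318 exon positions 49.1% were higher in G5, against 46.9% of 735 in introns, 48.8% of 1098 between genes and 82.1% of 453 in exonic islands. The median G0 level at lower positions was 88.3% in exons, 76.9% in introns, 84.0% between genes and 25.3% in exonic islands. Sizes in this comparison are those of the authors' deposited differences, not of plain differences between means of pools. The median size of a difference was 15.8 points in exons, 17.2 in introns, 17.0 between genes and 16.6 in exonic islands. At higher positions alone it was 16.1, 16.5, 16.3 and 17.0 points in that order, with exonic islands farthest from exons. At lower positions alone it was 15.7, 17.9, 17.6 and 14.6 points, with exonic islands nearest. Exon positions had a median of 11 CpGs in the surrounding 300 bp, against 8 in introns, 8.5 between genes and 28 in exonic islands. Repeat-masked sequence held 0.629% of exon positions, against 8.16% in introns, 14.5% between genes and 1.99% in exonic islands. Deposited differences of at least 20 points made up 25.2% of exon positions, against 32.9% in introns, 32.8% between genes and 28.5% in exonic islands. These are descriptions of lists made by 1 threshold, and the differences between classes were not tested.

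**Figure D5:**
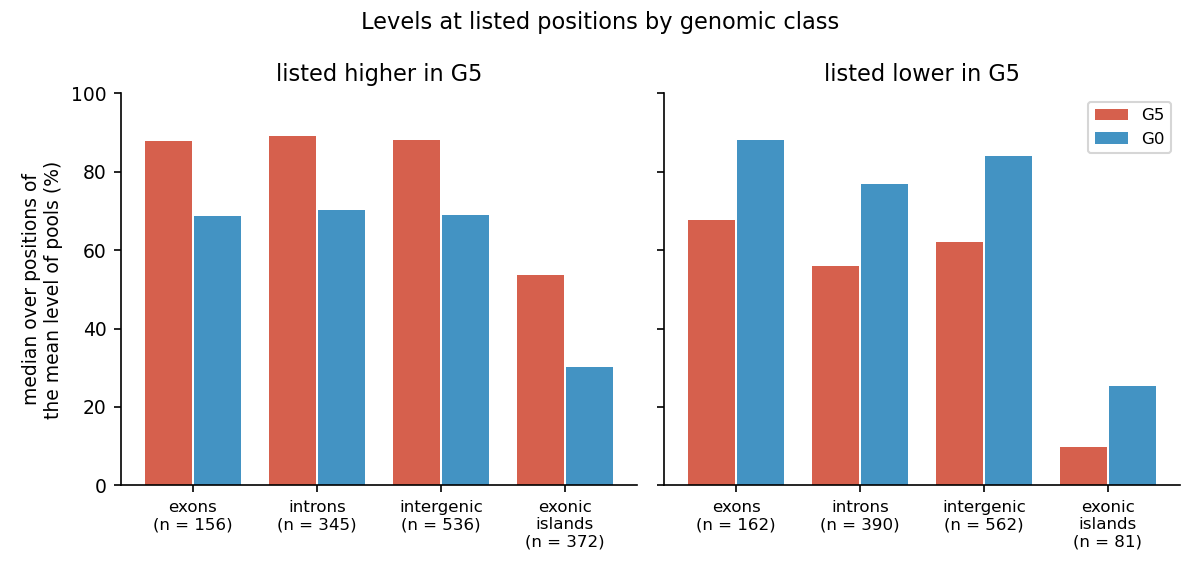
Median over listed positions of the mean level of the G5 pools and of the G0 pools, in percent, for exons, introns and intergenic sequence outside islands and for exonic islands, by direction. Exons stand at 87.8% in G5 against 68.8% in G0 among higher positions and at 67.8% against 88.3% among lower ones, near introns and intergenic sequence, whereas exonic islands stand at lower levels.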

How the data were processed

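The authors aligned bisulfite reads to mm10 by Bismark 0.7.11, which ran Bowtie, and compared groups by methylKit, per the submitters' processing notes, with Fisher's exact test per the labels' design text. The authors deposited, for each listed position, a percent methylation per pool, a p-value and q-value, a difference in percentage points (a signed score of G5 minus G0) and annotation flags, per the file headers. All listed q-values lie under 0.01 and all sizes of the difference over 10 points. The sources used here do not state versions of Bowtie and methylKit or a coverage minimum. A Fisher test of reads does not count the spread between pools.

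Exon positions were taken by the flags (exon set, promoter, island and shore not set, chromosomes 1 to 19). Of 4688 listed positions 2332 lay on the C of a CpG of GRCm38 and 2356 on the base before it, read as both strands counted from 0. Coordinates here give the C of the CpG, counted from 1. Exons came from RefSeq NM and NR transcripts of GRCm38.p6. No file gave read counts, so the percents of all listed positions went into limma 3.58.1 under R 4.3.3, with 3 G0 and 2 G5 pools. The fit was also run on simulated percents that had the spread of the G0 pools in all pools and no prior selection. That run therefore does not show how the fit behaves with the scatter of the G5 pools or with positions selected beforehand. Means and SDs are over pools. Differences are in percentage points. Pools share only numbers in the labels. Members, gene lists and tests were chosen with earlier results of these data known.

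Named genes followed a rule, namely in each direction the 8 genes holding most positions and 6 further ones with the largest difference, 4 with both directions, and the leading gene of each list, 39 in all. Some genes that the rule names are not reported here. Myo18a, Col4a1, Prkcz, Pkp3 and D030018L15Rik, and list members and other genes given without values, are outside it and were chosen after their values were seen. Alternatives were another scale, a trend, other sets of positions, a pool block, stricter thresholds, 1 value per CpG, coding exons only, clusters and leaving out each pool. Sequence was read by pysam 0.24.0 and figures drawn by matplotlib 3.10.9, with pandas 2.3.3 for tables, all under Python 3.11.15.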

Additional observations from a re-analysis of the deposited data

How the results depend on the processing

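The share of exon positions listed as higher, 49.1%, stayed within 47.5% and 52.5% under all 7 alternatives (CpGs, clusters of 1 kb and 10 kb, coding exons, differences from 20 points up, a q-value under 0.001 and positions without overlap). The calls of limma depended on the processing. Adjusted over the exon positions alone there were 8 higher and 5 lower calls, and with a trend on the mean level 67 higher and 71 lower. With the pool number as a replicate block there were 0 calls in either direction, where 48 higher and 36 lower ones had an unadjusted p under 0.05, with 1 residual degree of freedom. Deviations of same-numbered pools had a correlation of 0.0124 and 0.0476, so the numbers are not taken to pair the pools. Leaving out 1 pool gave 0 to 43 higher and 0 to 75 lower calls. Fewer pools leave fewer degrees of freedom, and where a G5 pool was left out the lone one is assumed to vary like the G0 pools. On a logit-like scale there were 67 higher and 59 lower calls, and only 31 and 30 of these were among the 46 higher and 45 lower calls of the main fit.

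Counts of positions without overlap at a q-value under 0.001 were 62 of 69 higher and 56 of 66 lower, where fewer positions enter. Without 1 pool they were 140 to 148 higher and 130 to 150 lower, against 137 and 126 with all pools. Leaving out a pool can only keep or raise this count, so these values are no check of it. The mean difference at higher positions was 22.01 points at a q-value under 0.001, 28.1 among differences of at least 20 points, and 16.8 to 19.5 without 1 pool. At lower positions it was -19.1 and -25.2 points under those settings, and -18.2 to -16.3 without 1 pool. With the median level of each pool in place of its mean, the groups were 19.3 points apart at higher and -20.3 points apart at lower positions. These are gaps between median levels, and the median size of the authors' deposited difference was smaller, 16.1 points at higher and 15.7 at lower positions. Of 43 differences of named genes 16 moved by over 1.5 times when a pool was left out, and 1 changed sign, Cacna1a, which ranged over -42.1 to 25.5 points. The cause was not tested. Depth is unknown, so counting error at a position is not separable from the spread between pools.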

Other observations

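Exon positions were spread over all 19 autosomes. Chromosome 7 held 49 of the 318 (15.4%), 18 higher and 31 lower, against 9.75% of all autosomal listed positions. Several of the 49 share a gene, with 6 lower ones in Ppp1r13l, 3 lower in Shank2, 2 lower in Umod and 4 higher in Napsa. Chromosome 13 held 16 higher and 3 lower positions, and 10 of the higher ones were those of Map1b. The G5 pools correlated with each other at r = 0.774 (Pearson) and the G0 pools at 0.934 to 0.958 over the 318 positions, a description over positions that share exons and were selected by the authors on these pools. D030018L15Rik, the member without a RefSeq exon, stood at 11.8% and 26.0% in G5, against 50%, 38.8% and 37.5% in G0. Pkp3, a desmosome gene, had CpGs 6 bp apart that stood at 8.75% and 24.6% in the G5 pools at both, against 0%, 4.44% and 3.16% in G0 at the first and 3.57%, 5.56% and 3.16% at the other.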
